A study of Mus musculus with 24 samples.

Results

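The genes described are 10 members of the Sox family of transcription factors that are known for specifying embryonic lineages. They were chosen by name, as the rows of the deposited gene table for *Sox1*, *Sox3*, *Sox21*, *Sox4*, *Sox11*, *Sox8*, *Sox9*, *Sox7*, *Sox17* and *Sox18*. Each had 1 row, so that they make up 10 of the 20633 transcripts in the table, and all 10 passed the filter that left 16940 transcripts for testing. Their expression was followed in calibrated RNA-seq (cRNA-seq) of 2 mouse embryonic stem cell (ESC) lines on the E14 background, both of which carry ERT2-Cre at Rosa26. The PRC1CKO line (clone B9) is Ring1a-/-;Ring1b fl/fl, so that its untreated cells already lack RING1A and 4-hydroxytamoxifen (OHT) removes RING1B as well. In the PRC1CPM line (clone 41) both *Ring1a* alleles carry I50A/D53K, and OHT switches the floxed *Ring1b* from the wild-type to an I53A/D56K form, which leaves PRC1 without catalytic activity. Its untreated cells therefore keep wild-type RING1B and carry catalytically inactive RING1A. Untreated cells and cells kept in 800 nM OHT for 72 h were sequenced from both lines, which gave 4 conditions of 3 replicates. Each line is 1 clone, so that a difference between the lines cannot be told apart from a difference between these clones.

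The Polycomb repressive complexes keep developmental genes at low levels in ESCs. PRC1 places ubiquitin on histone H2A through RING1A or RING1B and also has roles that do not need this catalysis, and many genes for lineage transcription factors lie in chromatin that it occupies. Sox proteins bind DNA through an HMG box and are sorted into groups by the likeness of this domain. SOX1 and SOX3 (group B1) maintain neural progenitors, SOX21 (group B2) counteracts group B1 factors, and SOX4 and SOX11 (group C) act in neuronal differentiation and in many other progenitors. SOX8 and SOX9 (group E) act in neural crest, cartilage and gonad, while SOX7, SOX17 and SOX18 (group F) act in endoderm and in blood vessels. In bulk RNA, more cells expressing a gene and more RNA per cell cannot be told apart.

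Values are normalised read counts, which are reads over a gene body divided by 1 factor per library that was set from *Drosophila* spike-in cells. The reads behind them could be recovered, and the libraries held between 14668159 and 27016156 reads on genes. Over all libraries, 80.2% of the values from 1 to 20 reads were even numbers, so that reads seem to have been counted as pairs of mates and their number overstates the number of independent fragments. The sum of normalised read counts was highest in the first replicate of each condition, which stood apart from the other 2 in the untreated cells of both lines. It was 24958331 in the first untreated PRC1CKO library against 17618069 and 17755844 in the others, 24373383 against 19075822 and 19883420 in untreated PRC1CPM cells, and 26077686 against 17909909 and 21836456 in OHT-treated PRC1CPM cells. In OHT-treated PRC1CKO cells it was 22092158, 19476946 and 20939764. Fold changes come from limma on log2(normalised read count + 1), which understates the change of genes with few reads. A gene was called at a Benjamini-Hochberg adjusted p under 0.05 over all transcripts tested and a fold change above 1.5. Adjusted p-values are from that test unless another fit is named.

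The libraries of all 4 conditions held transcripts of the pluripotency genes that mark ESCs. Of the list of 10 pluripotency genes, 9 were in the table and all 9 were tested. *Tdgf1*, which encodes a NODAL co-receptor, had the most normalised reads. Their summed level was 100202, 66239.6 and 74989 in the untreated and 59809, 58579 and 67842 in the OHT-treated PRC1CKO libraries. In PRC1CPM cells it was 80628, 56189 and 70567 in untreated and 75841, 43172 and 74160.3 in OHT-treated libraries. None of the 9 was called higher in either line, against 16.5% of all transcripts in PRC1CKO and 13.1% in PRC1CPM cells. *Sox2*, a group B1 gene required for pluripotency, and *Utf1*, another pluripotency gene, were called lower in PRC1CKO cells, and none was called lower in PRC1CPM cells, against 3.09% and 1.4% of all transcripts.

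The 10 Sox genes were present at very different levels. Per kilobase of gene body, the normalised read count in untreated PRC1CKO cells was 347 ± 87.2 (SD, n = 3) for *Sox4* and 139 ± 65.4 for *Sox11*. *Sox1* followed with 33.0 ± 7.24 and *Sox21* with 28.1 ± 6.53, which did not differ beyond their spread. *Sox3* had 10.6 ± 3.86 per kilobase. These 5 genes each have a single exon in the RefSeq annotation. *Sox18* (7.71 ± 2.71 per kilobase), *Sox8* (7.61 ± 0.834), *Sox7* (6.53 ± 2.81) and *Sox17* (4.45 ± 2.71) had lower means still. The range of 1 SD around each mean overlapped that of its neighbour in this order, and that of *Sox3* overlapped that of *Sox18*. Their gene bodies hold introns, unlike that of *Sox3*, so that this order holds per gene body only. *Sox9* was lowest, with 0.964 ± 0.507 per kilobase, from 2 to 10 reads in a library. After OHT *Sox3* ranked next below *Sox4* and *Sox11* in both lines, with 62.8 per kilobase in PRC1CKO and 76.1 in PRC1CPM cells. The plot of values by library shows all 120 values.

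**Figure D1:**
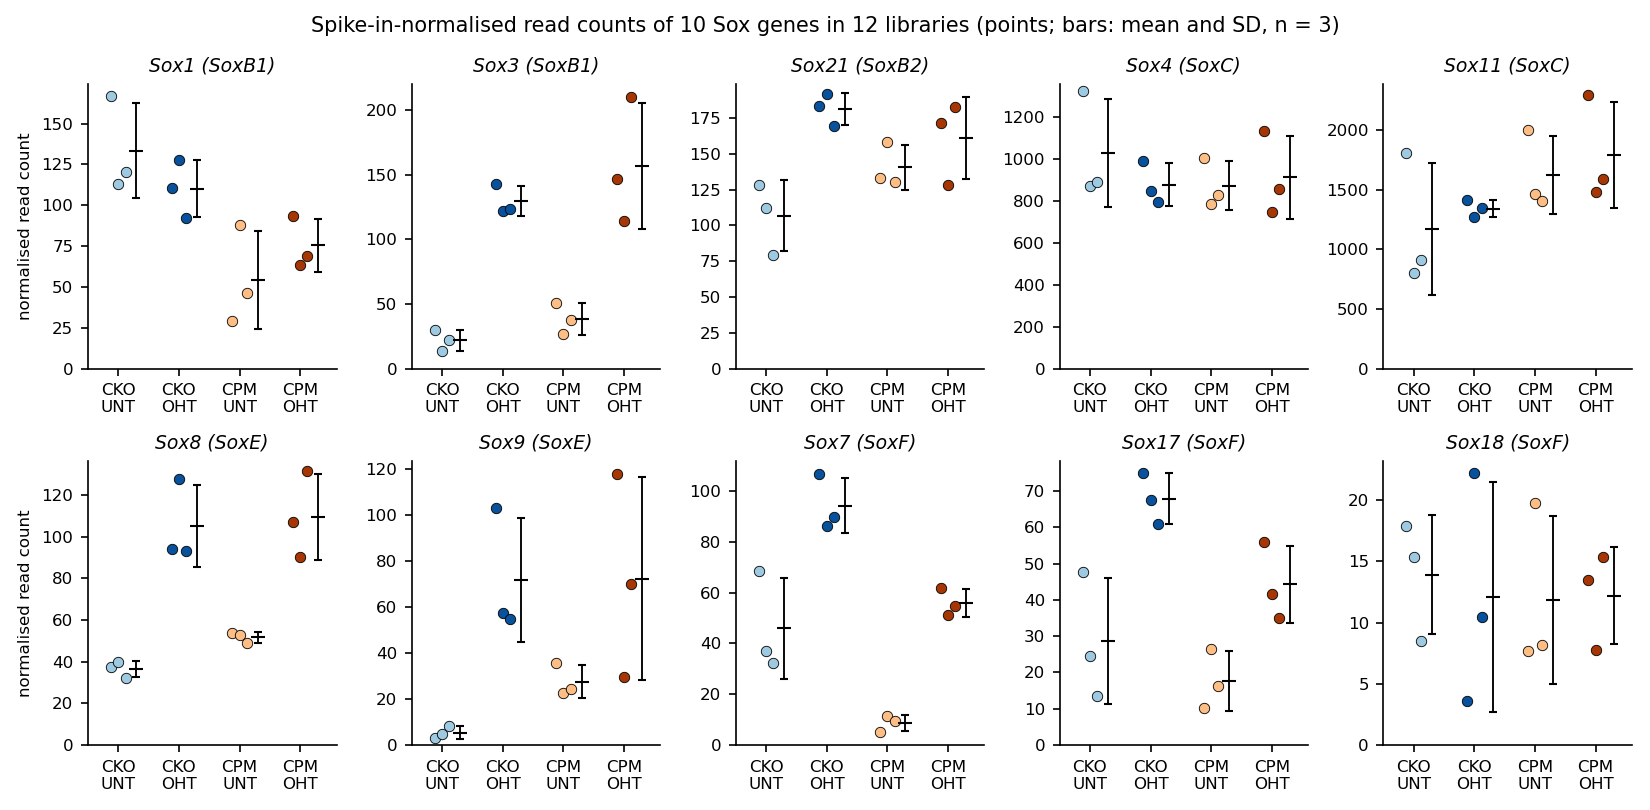
Normalised read count (y axis, linear, 1 scale for each gene) of the 10 Sox genes in the 12 libraries, by line (CKO, CPM) and treatment (UNT, OHT); points are libraries and bars are the mean and SD of 3. The 3 OHT-treated libraries lie above the 3 untreated ones of the same line for *Sox3*, *Sox8*, *Sox7* and *Sox17* in both lines, while *Sox4* and *Sox18* overlap in both.

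After removal of PRC1 in PRC1CKO cells, 4 of the 10 genes rose, namely *Sox3*, *Sox8*, *Sox9* and *Sox17*, and none fell. Over all transcripts tested, 16.5% were called higher and 3.09% lower in this comparison, or 19.5% in either direction. The median log2 fold change of the 10 genes was 0.94, against 0.12 for all transcripts tested. After loss of catalysis in PRC1CPM cells, 4 of the 10 rose as well, namely *Sox3*, *Sox8*, *Sox7* and *Sox17*, against 13.1% of all transcripts called higher and 1.4% called lower, or 14.5% in either direction. Here the median was 0.82, against 0.10 for all transcripts. With limma, *Sox3*, *Sox8* and *Sox17* were thus called in both lines, *Sox9* in PRC1CKO and *Sox7* in PRC1CPM cells, while DESeq2 and edgeR on the recovered reads called all 5 in both lines. All 3 OHT-treated libraries lay above all 3 untreated ones for 6 of the 10 genes in PRC1CKO cells and for 4 in PRC1CPM cells, which was also so for 22.1% and 18.7% of all transcripts. None of the 10 lay wholly below, against 8.52% and 3.7% of all. With TMM, which sets the median change near 0, the calls over all transcripts were 2845 higher and 1133 lower in PRC1CKO and 2396 and 595 in PRC1CPM cells, in place of 2787 and 524 and of 2226 and 237. The number of called genes depended on single libraries. It was 7 in PRC1CKO cells without the first untreated library of that line, where 23.9% of all transcripts were called in either direction, and it was 2 (*Sox3* and *Sox7*) in PRC1CPM cells without the first untreated, the third untreated or the first OHT-treated library, where 15.7%, 10.1% and 10.5% of all were called.

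**Figure D2:**
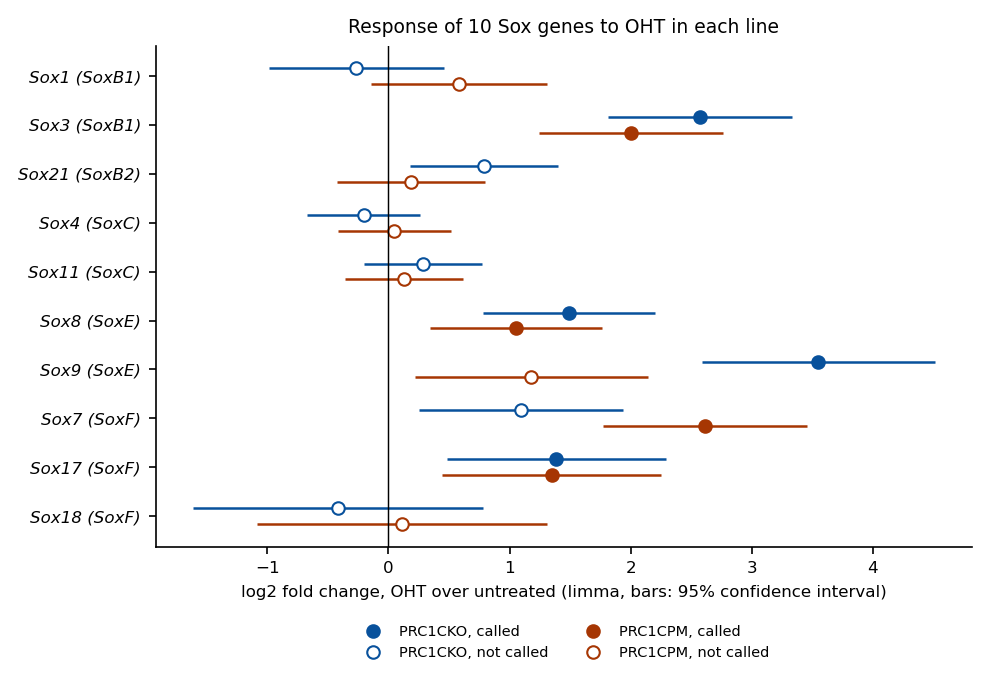
Log2 fold change on OHT treatment (x axis) of each Sox gene in PRC1CKO and PRC1CPM cells, with 95% confidence intervals from limma; filled points were called. *Sox9* had the highest value in PRC1CKO cells (3.55) and *Sox7* in PRC1CPM cells (2.62), while the intervals of *Sox4*, *Sox11*, *Sox1* and *Sox18* held 0 in both lines.

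Among the group B genes, *Sox3* rose in both lines. *Sox3* (NM_009237) lies on the minus strand of chromosome X of GRCm38 from 60891366 to 60893430 and is a single exon. Its normalised read count was 29.8, 13.9 and 22.0 in the untreated and 143, 122 and 124 in the OHT-treated PRC1CKO libraries. In PRC1CPM cells it was 51.1, 26.4 and 38.0 untreated and 147, 114 and 210.3 after OHT. The treated libraries stood above the untreated ones in both lines, with no overlap. On the log2 scale *Sox3* rose by 2.57 (standard error 0.38, adjusted p = 3.07e-07) in PRC1CKO and by 2.01 (standard error 0.38, adjusted p = 6.57e-05) in PRC1CPM cells, a rise of 5.95-fold and 4.02-fold. *Sox3* stayed called in all 12 fits that each left out 1 library, in both lines. The log2 fold change could not move when the library left out lay outside the compared groups. Only the spread estimate, which all libraries share, and the adjusted p could then change. Every count of such fits given here includes fits of this kind, so that it overstates how far single libraries were tested.

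The other group B genes were not called by limma in either line. *Sox1* (NM_009233, chromosome 8, plus strand, 12395519 to 12399555) had 167, 113 and 120.1 normalised reads in untreated and 110.3, 128 and 92.5 in OHT-treated PRC1CKO cells. In PRC1CPM cells it had 29.4, 87.6 and 46.1 before and 93.6, 63.4 and 69.0 after treatment. Untreated and treated values overlapped in both lines. Its log2 fold change was -0.26 in PRC1CKO (95% confidence interval -0.99 to 0.46) and 0.58 in PRC1CPM cells (-0.14 to 1.31). *Sox1* lies wholly within the same-strand noncoding transcript *Gm5607*, so that its reads also lie within *Gm5607*, and *Gm5607* had more reads than *Sox1* in each of the 12 libraries. *Sox21* (NM_177753, chromosome 14, minus strand, 118233234 to 118237030) had 128, 112 and 79.5 normalised reads in untreated and 183, 192 and 169 in OHT-treated PRC1CKO cells. The treated libraries lay above the untreated ones, but the log2 fold change of 0.79 (standard error 0.30) missed the threshold with an adjusted p of 0.0613. In PRC1CPM cells *Sox21* had 133, 158 and 130.1 normalised reads before and 172, 128 and 183 after OHT, which overlap, and its log2 fold change was 0.18 (95% confidence interval -0.43 to 0.80). The antisense noncoding gene *Gm4675* covers 21.0% of *Sox21*, and whether reads were counted by strand is not given in the sources used here.

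The group C genes, which were the most abundant members, were not called in either line. *Sox4* (NM_009238, chromosome 13, minus strand) is listed from 28950730 to 28953682, which leaves out part of the exon that RefSeq ends at 28948919. It had 1323, 867 and 887 normalised reads in untreated and 991, 847 and 791 in OHT-treated PRC1CKO libraries, and 1004, 783 and 828 against 1131, 744 and 858 in the PRC1CPM libraries. Before and after OHT the values overlapped in both lines. The log2 fold change was -0.21 in PRC1CKO (95% confidence interval -0.67 to 0.26) and 0.050 in PRC1CPM cells (-0.42 to 0.52), and the second value changed sign when TMM replaced the spike-in. The noncoding gene *Gm26735* on the other strand overlaps 31.9% of *Sox4* as listed. *Sox11* (NM_009234, chromosome 12, minus strand, 27334268 to 27342718) had 1808, 802 and 908 normalised reads in untreated and 1412, 1266 and 1344 in OHT-treated PRC1CKO libraries. The first untreated library was the highest of these 6 and the other 2 untreated ones were the lowest, and without that library the log2 fold change was 0.65 (adjusted p = 0.0267) in place of 0.29 (adjusted p = 0.507). Without the second untreated library it was 0.064 (adjusted p = 0.924). In PRC1CPM cells *Sox11* had 2001, 1462 and 1404 normalised reads before and 2297, 1476 and 1588 after OHT, with a log2 fold change of 0.13 (95% confidence interval -0.36 to 0.62).

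In group E, *Sox8* rose in both lines. *Sox8* (NM_011447, chromosome 17, minus strand, 25565893 to 25570686, 3 exons) had 37.2, 40.0 and 32.1 normalised reads in untreated and 94.0, 128 and 93.3 in OHT-treated PRC1CKO cells. In PRC1CPM cells it had 53.7, 52.8 and 48.8 before and 107, 90.5 and 131 after OHT. The treated libraries were the higher ones throughout and no values overlapped. The log2 fold change was 1.49 (standard error 0.35, adjusted p = 0.000989) in PRC1CKO and 1.05 (standard error 0.35, adjusted p = 0.0327) in PRC1CPM cells. In the fits without 1 library, *Sox8* was called in 12 of 12 in PRC1CKO and in 4 of 12 in PRC1CPM cells, where its adjusted p reached 0.191. The 4 were the fits without each untreated PRC1CKO library and without the second OHT-treated PRC1CPM library. The antisense noncoding gene *2810468N07Rik* overlaps 6.86% of *Sox8*.

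*Sox9*, a master regulator of cartilage, had the largest log2 fold change of the 10 in PRC1CKO cells. *Sox9* (NM_011448) has 3 exons and spans chromosome 11 from 112782210 to 112787757 (plus strand). It had 2.98, 4.62 and 8.46 normalised reads in untreated PRC1CKO libraries, from 2 to 10 reads, and 103, 57.4 and 55.0 after OHT. The groups were far apart, and the log2 fold change was 3.55 with a standard error of 0.48 (adjusted p = 4.28e-08). The call held in all 12 fits without 1 library. In PRC1CPM cells *Sox9* started higher, with 35.8, 22.6 and 24.4 normalised reads, and had 118, 29.4 and 70.1 after OHT. The second treated library fell within the untreated range, so that the groups overlapped, and the log2 fold change of 1.18 (standard error 0.48) was not called by limma with an adjusted p of 0.0976, while DESeq2 and edgeR on the recovered reads called it. Without that library it was 1.71 with an adjusted p of 0.0172, and without the first treated library it was 0.73 with an adjusted p of 0.507.

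Of the group F genes, *Sox17* rose in both lines and *Sox7* in PRC1CPM cells. *Sox17* (NM_001289464), which specifies endoderm, has 4 exons and spans chromosome 1 from 4490928 to 4497354 (minus strand). It had 47.7, 24.6 and 13.5 normalised reads in untreated and 75.03, 67.6 and 61.1 in OHT-treated PRC1CKO cells. In PRC1CPM cells it had 10.2, 26.4 and 16.3 before and 56.0, 41.8 and 35.1 after OHT. Treated and untreated libraries did not overlap in either line. The log2 fold change was 1.39 (standard error 0.45, adjusted p = 0.0209) in PRC1CKO and 1.35 (standard error 0.45, adjusted p = 0.0324) in PRC1CPM cells, and it was called in 9 and 8 of the 12 fits without 1 library. In PRC1CKO cells the call was lost without the third untreated, the first treated or the second treated library of that line, with a log2 fold change as low as 0.96. In PRC1CPM cells it was lost without the first untreated, the third untreated, the first treated or the second treated library of that line, with a value as low as 1.03. The noncoding gene *Gm37587* on the other strand overlaps 12.5% of *Sox17*.

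*Sox7* (NM_011446), which acts in primitive endoderm and vessels, has 2 exons and spans chromosome 14 from 63943706 to 63950732 (plus strand). It had 5.11, 11.3 and 9.49 normalised reads in untreated PRC1CPM cells, from 4 to 12 reads, and 61.8, 51.0 and 54.8 after OHT. The groups did not overlap, and the log2 fold change was 2.62 (standard error 0.42, adjusted p = 4.23e-06), called in all 12 fits without 1 library. In PRC1CKO cells it had 68.5, 36.9 and 32.1 before and 107, 86.1 and 89.9 after OHT, which did not overlap either. There the log2 fold change of 1.09 (standard error 0.42) had an adjusted p of 0.0586, and without the first untreated PRC1CKO library it was 1.42 with an adjusted p of 0.0114, while without the third it was 0.88 with an adjusted p of 0.260. *Sox18* (NM_009236, chromosome 2, minus strand, 181669837 to 181671640) acts in lymphatic and vascular endothelium and had only 4 to 24 reads in any library. Its normalised read count was 17.9, 15.4 and 8.46 in untreated and 3.62, 22.2 and 10.5 in OHT-treated PRC1CKO cells, and 7.67, 19.8 and 8.13 against 13.5, 7.73 and 15.3 in PRC1CPM cells. These values overlapped, and the 95% confidence intervals of the log2 fold change ran from -1.62 to 0.78 and from -1.09 to 1.31. A change within these intervals could not be told apart from none with these libraries.

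Before treatment the lines already differed at 3 of the 10 genes, 1 higher and 2 lower in PRC1CPM, against 2.69% of all transcripts called between the untreated lines (2.21% higher and 0.478% lower). *Sox9* was higher in untreated PRC1CPM than in untreated PRC1CKO cells, with 27.6 ± 7.15 against 5.35 ± 2.81 normalised reads (SD, n = 3) and a log2 difference of 2.24 (standard error 0.48, adjusted p = 0.00316). *Sox7* was lower, with 8.64 ± 3.18 against 45.9 ± 19.8 and a log2 difference of -2.26 (standard error 0.42, adjusted p = 0.000513). *Sox1* was also lower, with 54.4 ± 30.0 against 133 ± 29.2 and a log2 difference of -1.40 (standard error 0.36, adjusted p = 0.01997). For each of these genes the libraries of the lines did not overlap. The differences for *Sox9* and *Sox7* were called in all 12 fits without 1 library and that for *Sox1* in 9, being lost without the third untreated PRC1CKO or the first or the third untreated PRC1CPM library. The PRC1CPM libraries lay wholly above the PRC1CKO ones for 3 of the 10 genes (*Sox21*, *Sox8* and *Sox9*) and wholly below for 2 (*Sox1* and *Sox7*), against 9.23% and 2.55% of all transcripts. *Sox11* was called higher in untreated PRC1CPM cells only without the first untreated PRC1CKO library, at 0.91 in place of 0.55. *Gm5607*, which spans *Sox1*, had a log2 difference of -1.08 between the untreated lines with an adjusted p of 0.0599.

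After OHT treatment none of the 10 genes was called between the lines. Of all transcripts, 1.25% were called higher and 0.218% lower in PRC1CPM cells, or 1.47% in either direction, and edgeR and DESeq2 on the recovered reads also called 0 of the 10. At an unadjusted p under 0.05 the number was 0 as well, against 10.99% of all transcripts. The median log2 difference of PRC1CPM over PRC1CKO cells was -0.048 for the 10 genes and 0.097 for all transcripts. *Sox9*, with 72.4 ± 44.2 and 71.8 ± 27.1 normalised reads, had a log2 difference of -0.14 with a 95% confidence interval from -1.10 to 0.83, and the sign of this value changed in DESeq2, in edgeR and without the gDNA-seq correction of the spike-in. *Sox3* had a log2 difference of 0.23 (-0.52 to 0.99) and *Sox8* one of 0.061 (-0.65 to 0.77), which was below 0 with TMM. *Sox7* had the value furthest from 0, at -0.74 (-1.58 to 0.10), and its 3 PRC1CPM libraries lay below the 3 PRC1CKO libraries, as they did for *Sox17* at -0.63 (-1.53 to 0.28). *Sox11* had a log2 difference of 0.39 (-0.10 to 0.87), with the PRC1CPM libraries above the PRC1CKO ones. Over all transcripts 11.9% lay wholly above and 4.35% wholly below in this way.

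**Figure D3:**
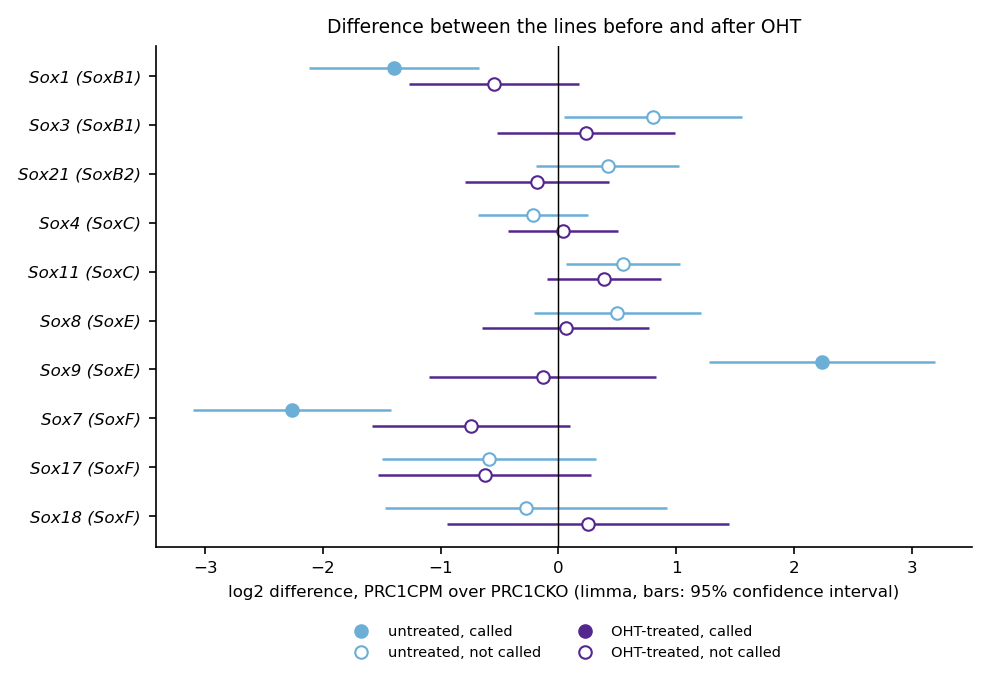
Log2 difference of PRC1CPM over PRC1CKO cells (x axis) for each Sox gene, untreated and OHT-treated, with 95% confidence intervals from limma; filled points were called. *Sox9* (2.24), *Sox1* (-1.40) and *Sox7* (-2.26) were called between the untreated lines and no gene between the treated lines.

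The response to OHT was also compared between the lines directly, as the interaction of line and treatment. With no replicate block, none of the 10 genes passed an adjusted p of 0.05 in limma, edgeR or DESeq2, and 0.0236% of all transcripts did in limma. At an unadjusted p under 0.05 there were 2, *Sox9* and *Sox7*, against 2.93% of all transcripts, and they lay in opposite directions. The log2 fold change of *Sox9* was smaller in PRC1CPM than in PRC1CKO cells, with an interaction of -2.37 (95% confidence interval -3.73 to -1.01, adjusted p = 0.512). With a block for replicate number the interaction of *Sox9* was called by limma (adjusted p = 0.00144) and by DESeq2 (-2.30, adjusted p = 0.0212). Of all transcripts, 1.91% and 1.39% were then called. Nothing in the labels ties the replicate numbers to a shared day. The interaction of *Sox7* was 1.52 (0.33 to 2.71, adjusted p = 1.00). These genes are those with the largest differences between the untreated lines, and the interaction and the untreated difference share the untreated libraries, so that they are not separate evidence.

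Promoter sequences of RefSeq (GRCm38.p6) were taken for the 5 members that had an entry, *Sox1*, *Sox21*, *Sox4*, *Sox11* and *Sox8*. *Sox3*, *Sox7*, *Sox9*, *Sox17* and *Sox18* had none. The 250 bases before the start were read, since PRC1 is known to be recruited to CpG-rich start regions in ESCs. The following 3 show *Sox8*, which rose in both lines, *Sox11*, which was abundant and not called, and *Sox1*, which was not called on treatment but differed between the untreated lines. They lie at chr17:25570687-25570936 on the minus strand, at chr12:27342719-27342968 on the minus strand and at chr8:12395269-12395518 on the plus strand, and are written 5′ to 3′ with each CG in capitals.
Sox8: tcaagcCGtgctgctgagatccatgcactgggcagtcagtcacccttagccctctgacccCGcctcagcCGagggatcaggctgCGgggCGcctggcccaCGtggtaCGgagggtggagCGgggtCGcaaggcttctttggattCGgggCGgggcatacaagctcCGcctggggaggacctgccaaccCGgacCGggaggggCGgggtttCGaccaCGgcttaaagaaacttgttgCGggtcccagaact
Sox11: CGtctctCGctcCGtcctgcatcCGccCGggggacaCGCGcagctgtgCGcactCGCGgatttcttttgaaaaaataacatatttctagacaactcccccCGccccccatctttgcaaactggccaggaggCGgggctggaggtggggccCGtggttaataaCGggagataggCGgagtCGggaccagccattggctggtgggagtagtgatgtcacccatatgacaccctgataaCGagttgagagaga
Sox1: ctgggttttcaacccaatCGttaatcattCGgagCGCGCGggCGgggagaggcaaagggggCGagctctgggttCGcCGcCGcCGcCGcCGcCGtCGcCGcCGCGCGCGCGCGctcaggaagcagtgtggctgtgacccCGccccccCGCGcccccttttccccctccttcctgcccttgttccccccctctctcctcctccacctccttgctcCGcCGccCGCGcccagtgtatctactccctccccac
The window of *Sox8* held 18 CG dinucleotides, that of *Sox11* 17 and that of *Sox1* 29. *Sox21* had 17 and *Sox4* 11. Over all 32851 promoters of the table the median was 6, with quartiles of 2 and 16, so that each of the 5 was above the median and *Sox4* alone was within the quartiles. Of the 4 genes that limma did not call on treatment, *Sox1* held more CG than *Sox8*, and *Sox11*, *Sox21* and *Sox4* held fewer. An E-box with the letters CACGTG, which reads the same on both strands and includes one of the CG, was found once, in *Sox8*, and 6.02% of all promoters held it. The Sox motifs ACAATG and ACAAAG and the TATA box TATAAA were found in none of the 5 windows on either strand, and 10.7%, 16.5% and 12.4% of all promoters held them. A match or its absence describes these letters in this window only.

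Of the other 10 genes of the family, 9 were tested, and 3 were called higher in both lines, against 16.5% of all transcripts in PRC1CKO and 13.1% in PRC1CPM cells. *Sox6*, a group D gene that works with *Sox9* in cartilage, rose by 2.69 on the log2 scale in PRC1CKO cells (standard error 0.27, adjusted p = 2.60e-11) and by 1.52 in PRC1CPM cells (adjusted p = 3.40e-05). *Sox10*, the third group E gene and a neural crest regulator, rose by 1.59 and 1.72 (adjusted p = 0.00181 and 0.00106). *Sox30* rose by 2.01 and 1.19 (adjusted p = 0.000215 and 0.0491). *Sox2* had 8859, 6164 and 6431 normalised reads in untreated and 3398, 4013 and 4065 in OHT-treated PRC1CKO cells, with no overlap, and fell by 0.89 on the log2 scale (standard error 0.20, adjusted p = 0.000510). Its log2 fold change in PRC1CPM cells was -0.45 (adjusted p = 0.136). *Sox12*, the third group C gene, fell by 1.02 in PRC1CKO cells (adjusted p = 0.00144) and had a value of -0.62 in PRC1CPM cells (adjusted p = 0.0884). *Sox14*, the second group B2 gene, had 0 reads in the 6 untreated libraries, 14, 11 and 0 in the OHT-treated PRC1CKO and 10, 6 and 2 in the OHT-treated PRC1CPM libraries, and it was not called. *Sox5*, *Sox13* and *Sox15* had log2 fold changes from -0.33 to 0.62 and were not called. *Sry* had no reads and was not tested. None of the 9 was called between the lines, treated or untreated.

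Genes known to act with each Sox group were counted in lists, and each count is to be read against the share of all transcripts called, which was 16.5% higher and 3.09% lower in PRC1CKO and 13.1% higher and 1.4% lower in PRC1CPM cells. Of the list of 10 endoderm genes, 7 were tested and 5 rose in each line, with a median log2 fold change of 2.14 in PRC1CKO and 1.63 in PRC1CPM cells, against 0.12 and 0.10 for all transcripts. The largest value in PRC1CKO cells was that of *Foxa1*, a pioneer factor, at 3.48 (2.66 in PRC1CPM), and the smallest that of *Hnf4a* at -1.04 (-1.16), which was not called. *Gata6*, a primitive endoderm regulator that had the most normalised reads of the list over all 12 libraries together, though not in each condition, rose by 2.96 and 2.26. The summed level of the list was 849, 575 and 483 in untreated and 2862, 2324 and 2413 in OHT-treated PRC1CKO libraries, and 497, 421 and 488 against 1452, 868 and 1386 in PRC1CPM libraries. The treated sums stood above the untreated ones in both lines. The endoderm products *Cer1*, *Afp* and *Ttr* had at most 6 reads in any library and were not tested, so that these defining products were at or near 0 while *Sox17*, *Foxa1* and *Gata6* rose.

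Of the list of 10 endothelial genes, 9 were tested, and 6 rose and 1 fell in PRC1CKO cells, with a median of 1.67. In PRC1CPM cells 5 rose and 1 fell, with a median of 1.41. *Erg*, an endothelial transcription factor, had the largest value in PRC1CKO cells at 2.26 (2.05 in PRC1CPM). *Pecam1*, an adhesion molecule that ESCs also express, had the most normalised reads and the smallest log2 fold change, and fell by 1.64 and 1.59 on the log2 scale. It made up most of the sum of the list in untreated cells, which was 5914, 4488 and 4936 in untreated and 3910, 3294 and 3581 in OHT-treated PRC1CKO libraries. In PRC1CPM libraries the sum was 9113, 6256 and 8898 against 6128, 3906 and 4750. *Emcn*, an endothelial surface protein, had at most 7 reads and was not tested.

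Of the list of 10 genes of neural crest and cartilage, 9 were tested, and 4 rose in each line and none fell, with medians of 0.14 in PRC1CKO and 0.61 in PRC1CPM cells. *Tfap2a*, a neural crest regulator, had the largest value in PRC1CKO cells at 3.51 (1.97 in PRC1CPM), and *Matn1*, a cartilage matrix protein, the smallest at -0.28 (0.41). *Erbb3*, a neuregulin receptor that had the most normalised reads over all 12 libraries together, though not in each condition, rose by 0.67 and 0.66. The summed level was 4311, 2891 and 3075 in untreated and 7643, 6644 and 6384 in OHT-treated PRC1CKO libraries, and 5151, 3754 and 4534 against 8356, 5262 and 6129 in PRC1CPM libraries.

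Of the list of 10 neural progenitor genes, 9 were tested, and 5 rose and 1 fell in PRC1CKO cells (median 1.28), while 4 rose and none fell in PRC1CPM cells (median 0.45). *Zic1*, a neural plate transcription factor, had the largest value at 5.35 (4.29 in PRC1CPM), and *Ncan*, a matrix protein, fell by 0.79 in PRC1CKO cells and had a value of -0.12 in PRC1CPM cells. *Notch1*, the gene with the most normalised reads, had values of -0.026 and 0.071. The sum was 9368, 5859 and 6607 in untreated and 8509.7, 7899 and 7732 in OHT-treated PRC1CKO libraries, and 9885, 8101 and 7724 against 12014, 8157 and 8545 in PRC1CPM libraries, so that it overlapped between treated and untreated cells in both lines. *Fabp7*, a radial glia marker, had at most 4 reads. Of the list of 10 neuronal genes, 9 were tested, and 2 rose and 3 fell in PRC1CKO cells (median 0.16), against 2 and 1 in PRC1CPM cells (median 0.40), so that the number that rose was near the share of all transcripts in both lines. *Rbfox3* had the largest value at 1.39 (0.90) and *Snap25*, a synaptic protein, the smallest, and fell by 1.99 and 1.35. *Stmn2*, which had the most normalised reads, fell by 0.59 in PRC1CKO cells and had a value of -0.43 in PRC1CPM cells. The sum was 13129, 8372 and 8794 in untreated and 9829, 7606 and 9946 in OHT-treated PRC1CKO libraries, and 10878, 8233 and 8659 against 11856, 7314 and 9295.5 in PRC1CPM libraries. *Dcx*, a marker of young neurons, had at most 10 reads. The part of other cell types in the values of the Sox genes was not tested.

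**Figure D4:**
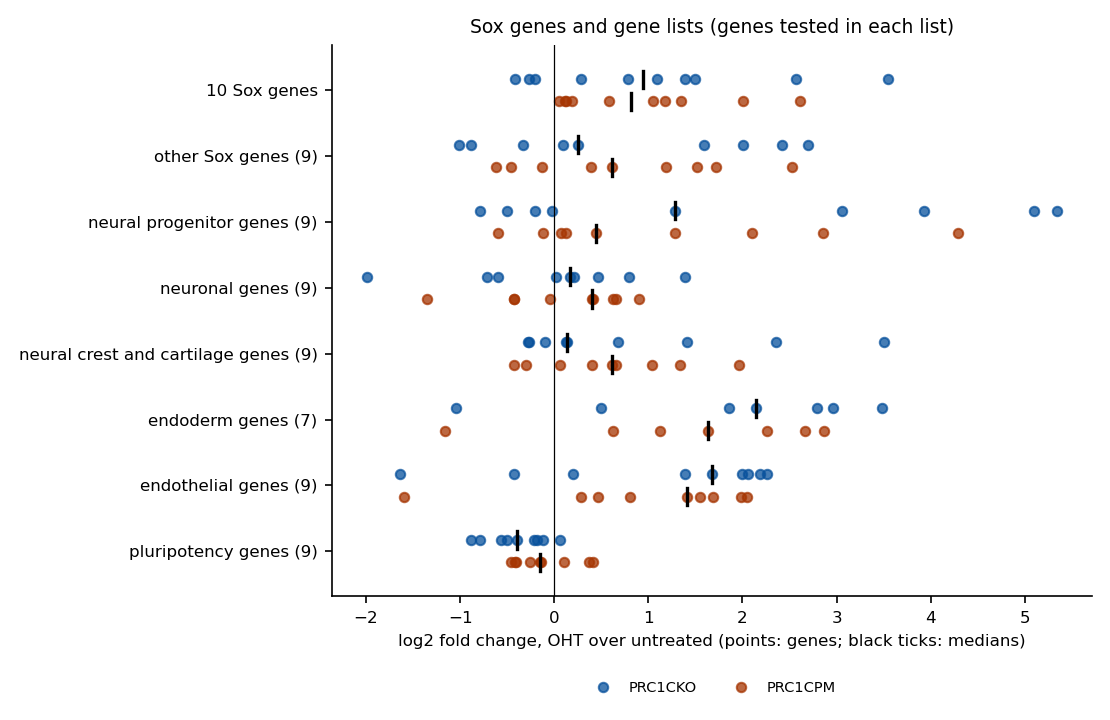
Log2 fold change on OHT treatment (x axis) of the 10 Sox genes, of the other Sox genes and of 6 gene lists in PRC1CKO and PRC1CPM cells; points are genes tested, with their number in brackets, and black ticks are medians. The endoderm list had the highest median in both lines (2.14 and 1.63) and the pluripotency list the lowest (-0.39 and -0.15).

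The 10 genes did not vary as one over the 12 libraries. The correlations of their log2 values, which share treatment, library and depth, had a median of 0.29 over 45 pairs and ran from -0.35 to 0.94. *Sox3* and *Sox8* had the highest value (0.94), followed by *Sox7* and *Sox17* (0.88) and by *Sox3* and *Sox9* (0.87). *Sox1* and *Sox11* had the lowest. *Sox1* had a correlation of 0.73 with *Sox7*, the other gene that was lower in untreated PRC1CPM cells. The 5 other genes whose log2 values over the 12 libraries were most like the mean pattern of the 10 were *Pramef8* (r = 0.97), *Eml3* (0.96), *Tgfbr1* (0.96), *Ppp1r26* (0.96) and *Rcan1* (0.96). Their log2 fold changes ran from 0.48 to 0.75 in PRC1CKO and from 0.49 to 0.69 in PRC1CPM cells. In PRC1CKO cells only *Eml3* (adjusted p = 0.0428) and *Tgfbr1* (adjusted p = 0.0110) were called. In PRC1CPM cells none of the 5 was called, and the lowest adjusted p was 0.0751 for *Rcan1*.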

How the data were processed

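Groups of the 12 cRNA-seq libraries follow the labels, which give line, treatment and replicate. The 12 gDNA-seq libraries entered the main values only through the authors' normalisation. For the alternative without the gDNA-seq correction, that correction was undone with the read totals of these libraries in the study's supplement. The authors aligned reads to mm10 and dm6 with STAR and Bowtie 2, removed rRNA reads and PCR duplicates and counted reads over gene bodies. The authors' deposited values are a normalised signal: each read count was scaled by 1 DESeq2 size factor per library from the *Drosophila* reads, corrected by gDNA-seq. Their log2 fold changes and adjusted p-values in the same table were not used.

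The factor of each library was inferred from the spacing of its values. Multiplied by this inferred factor, 100% of values were whole reads (tolerance 0.02). The factor was fitted to whole reads, so that this is no check of the authors' own factor. Raw counts had been planned for, and since the deposited unit is a scaled one, limma 3.58.1 (R 4.3.3) was used on log2(value + 1), with a mean for each condition, a mean-variance trend, no block and Benjamini-Hochberg adjustment over 16940 transcripts that reached 10 reads in 3 or more libraries. edgeR 4.0.16 and DESeq2 1.42.0 on recovered reads, other scalings, filters and thresholds and each library left out were alternatives. The fit was tested on simulated data. The study calls its replicates biological, and the labels do not say how they were grown, so p-values measure the spread between these samples of 1 clone per line.

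The 10 genes and all gene lists were chosen with earlier results of these data known. All 10 and the other Sox genes are named. Of each list the smallest and the most abundant gene are named, and the largest except in the pluripotency list. Of each of the 10 the nearest neighbours are named, and so are the 5 genes most like them. *Cer1*, *Afp*, *Ttr*, *Emcn*, *Fabp7*, *Dcx* and *Utf1* were named after their values were seen. One listed gene is not reported here. Positions are those of the deposited table on GRCm38 with 1 added to the start. Overlaps come from GENCODE vM21. Python 3.11.15, numpy 2.4.6, pandas 2.3.3, scipy 1.17.1 and matplotlib 3.10.9 were used for summaries and plots.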

Additional observations from a re-analysis of the deposited data

How the results depend on the processing

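Under a test against a 1.5-fold change, 2 of the 10 genes were called in PRC1CKO cells (*Sox3* and *Sox9*), 2 in PRC1CPM cells (*Sox3* and *Sox7*) and 1 between the untreated lines (*Sox7*). In PRC1CPM cells 2 (*Sox3* and *Sox7*) were called without the filter on low counts and also at an adjusted p under 0.01, where 11.6% and 9.94% of all transcripts were called. Leaving out 1 library gave 3 to 7 called genes in PRC1CKO, 2 to 4 in PRC1CPM, 2 to 4 between the untreated lines, 0 between the treated lines and 0 for the interaction. DESeq2, TMM and the fit without a mean-variance trend each called 6 genes in PRC1CKO cells, adding *Sox21* and *Sox7*, with 19.6%, 23.5% and 17.4% of all transcripts. Without the gDNA-seq correction 3 were called in PRC1CKO and 5 in PRC1CPM cells (16.5% and 20.6% of all), and the median log2 fold change of all transcripts was -0.037 and 0.39 in place of 0.12 and 0.10. With TMM these medians were -0.0019 and -0.0072. Over all transcripts the share called was 8.97% in PRC1CKO and 5.80% in PRC1CPM cells under the test against 1.5-fold, and 0.189% and 0.331% between the treated and the untreated lines. Between the treated lines it was 2.53% with DESeq2, 4.63% with TMM (524 higher, 261 lower), 2.73% without the gDNA-seq correction (441 and 21), 0.793% without the filter, 0.673% at 0.01 and 8.05% with the replicate block. Between the untreated lines it was 6.20% with TMM (745 and 305), 1.64% without the gDNA-seq correction (130 and 148), 1.54% without the filter, 1.10% at 0.01 and 11.1% with the block. For the interaction it was 0.0903% with DESeq2, 0.0826% with TMM and 1.91% with the block.

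Libraries with the same replicate number deviated from their group means together, with a mean correlation of 0.205 over 18 pairs (lowest 0.0988). Each of the 12 correlated best with its own number. The mean was -0.102 over 36 pairs with different numbers. Deviations from a group mean add up to 0, so that a positive mean for equal numbers forces a negative one for different numbers. The negative value is thus not separate evidence. The link between equal numbers is a hint from the data, since nothing in the labels ties the numbers to a shared day. With the replicate block 6 genes were called in PRC1CKO (adding *Sox21* and *Sox7*), 5 in PRC1CPM (adding *Sox9*), 4 between the untreated lines (adding *Sox3*, which DESeq2 with the block did not call) and 1 in the interaction, *Sox9* (-2.37, adjusted p = 0.00144 from limma). The block also raised the share of all transcripts called from 19.5% to 25.1% in PRC1CKO and from 14.5% to 20.6% in PRC1CPM cells. DESeq2 with the replicate block also called 1 in the interaction, *Sox9* (-2.30, adjusted p = 0.0212).

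Of the log2 values over all alternative settings, 1103 kept their direction and their side of the threshold, 28 passed it newly, 34 no longer passed and 35 changed sign. Many settings could not move the log2 value, such as other thresholds, no filter, the limma block or a library left out from outside the comparison. The number that kept direction is therefore no measure of stability. No value that changed sign had been called. With TMM *Sox4* was -0.058 in PRC1CPM and -0.062 between the treated lines, and *Sox8* -0.040 between them. DESeq2 gave -0.00087 for *Sox18* in PRC1CPM, 0.0076 for *Sox9* between the treated lines and 0.0078 for the interaction of *Sox17*. edgeR gave -0.027 for *Sox18* in PRC1CPM and, between the treated lines, -0.0055 for *Sox18* and 0.0056 for *Sox9*. Without the gDNA-seq correction *Sox9* was 0.029 between the treated lines, and the interactions were 0.29 for *Sox11*, 0.0060 for *Sox8* and 0.39 for *Sox17*. Leaving out 1 library gave -0.98 to 0.19 for *Sox18* in PRC1CKO. In PRC1CPM it gave -0.12 to 0.18 for *Sox4*, -0.065 to 0.29 for *Sox11* and -0.11 to 0.52 for *Sox18*. Between the treated lines it gave -0.13 to 0.18 for *Sox4*, -0.077 to 0.21 for *Sox8*, -0.59 to 0.40 for *Sox9* and -0.36 to 0.81 for *Sox18*. For the interaction it gave -0.52 to 0.066 for *Sox11*, -0.48 to 0.39 for *Sox17* and -0.080 to 1.09 for *Sox18*. The cause was not tested. Reads were few for *Sox18* throughout, and for *Sox9* and *Sox7* in the untreated line where each is low.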

Other observations

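The nearest other gene on either side of each of the 10 Sox genes was also followed, as 20 neighbours of which 16 were tested. In PRC1CKO cells 2 of them rose and 1 fell, with a median log2 fold change of 0.32, and in PRC1CPM cells 1 rose, with a median of 0.25. The numbers that rose were not above the 16.5% and 13.1% of all transcripts called higher. The 2 were *Gm715*, 342150 bases from *Sox3*, with log2 fold changes of 3.00 and 2.36 (adjusted p = 0.000480 and 0.00921 from limma) and means of 2.10 and 18.9 normalised reads before and after OHT in PRC1CKO cells, and *Sstr5*, a somatostatin receptor 68605 bases from *Sox8*, with 1.53 and 0.68 (adjusted p = 0.000969 and 0.267). *1700044C05Rik*, 128848 bases from *Sox21*, fell by 1.205 in PRC1CKO cells (adjusted p = 0.0153) and had a value of -0.72 in PRC1CPM cells (adjusted p = 0.249). The noncoding gene *2810468N07Rik*, listed 125 bases from *Sox8* on the other strand, had log2 fold changes of 0.42 and 0.92 and was not called. *Gm5607*, which spans *Sox1*, had 191, 132 and 127 normalised reads in untreated PRC1CKO and 51.1, 106 and 61.0 in untreated PRC1CPM libraries. Close to *Sox7* and *Sox18*, *Pinx1* (23847 bases away), *Prpf6* (14176) and *Tcea2* (8670) had log2 fold changes from 0.020 to 0.52 in PRC1CKO and from 0.040 to 0.27 in PRC1CPM cells and were not called. The remaining neighbours were *Tex29*, *C230004F18Rik*, *Gpr180*, *2610307P16Rik*, *A330102I10Rik*, *Gm9866*, *Dcdc2c* and *Mrpl15*, which were not called, and *BC006965*, *Gm11681*, *4930578I06Rik* and *Rp1*, which were not tested.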
